A study of Mus musculus with 6 samples.

Results

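The genes followed here, 10 in all, belong to the early transcriptional response to growth factors, and were measured in mouse cumulus-oocyte complexes cultured with the MTOR inhibitor Torin1 or with its vehicle DMSO: the zinc finger factor genes Egr1, Egr2, Egr3 and Egr4, the corepressor genes Nab1 and Nab2, the regulator gene Srf, the immediate early genes Ier2 and Ier3, and Myc. They were chosen by name, and all 10 of them were measured among 22180 genes. Where several probe sets named a gene alone, the brightest over the 6 arrays stood for it. Levels are given as log2(intensity + 1), on which a change understates that of a dim gene.

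The tested complexes, 3 samples, were treated with 5 µM Torin1, which blocks the MTOR kinase at its catalytic site, and the 3 control samples were given DMSO, labelled with the same concentration. Every sample came from wildtype females primed with 5 IU of eCG for 46 h, and each group of complexes numbered 100, so an array reads many oocytes and their cumulus cells as a pool. All media carried 5 µM milrinone, which holds oocytes in meiotic arrest, and 3 mg/ml of serum albumin. The mice's age is given as 21 days in the growth protocol and 23 days in the sample characteristics. These may be the ages before and after the 46 h of eCG, which the labels do not settle. On the time in culture the labels disagree (14 h or 16 h). The labels call the samples sets without naming the mice or days behind them, so a p-value here measures spread among these samples only, and that spread may be technical.

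Growth factor receptors act through the kinase ERK on ternary complex factors of the ETS family, which sit with the factor SRF on a DNA element called the CArG box and switch on immediate early genes within minutes, without new protein synthesis. The EGR factors are products of that first wave: they bind a GC-rich element through zinc fingers, and NAB1 and NAB2 bind to EGR1, EGR2 and EGR3 and hold their activity in check. In the ovary, epidermal growth factor-like ligands released after the luteinizing hormone surge act on cumulus cells through this cascade, and EGR1 is among the factors that the surge induces in granulosa cells.

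With Torin1, 7 of the 10 genes rose and 0 fell by limma at an adjusted p below 0.05 (also 7 and 0 at an unadjusted p below 0.05), where 12.1% of all genes were called, 5.13% higher and 6.94% lower. The genes that rose were Egr1, Egr2, Egr3, Nab1, Nab2, Ier2 and Ier3, and in each of them all 3 Torin1 values lay above all 3 DMSO values, a separation found in 14.3% of all genes. The median log2 change of the 10 was 0.81, against 0.01 for all genes. Egr4, Srf and Myc were not called. The genes were picked with earlier results of these arrays known, so these counts describe them and do not test them as a set. In such mixed complexes a lower share of a cell type and less RNA per cell of that type cannot be told apart.

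**Figure D1:**
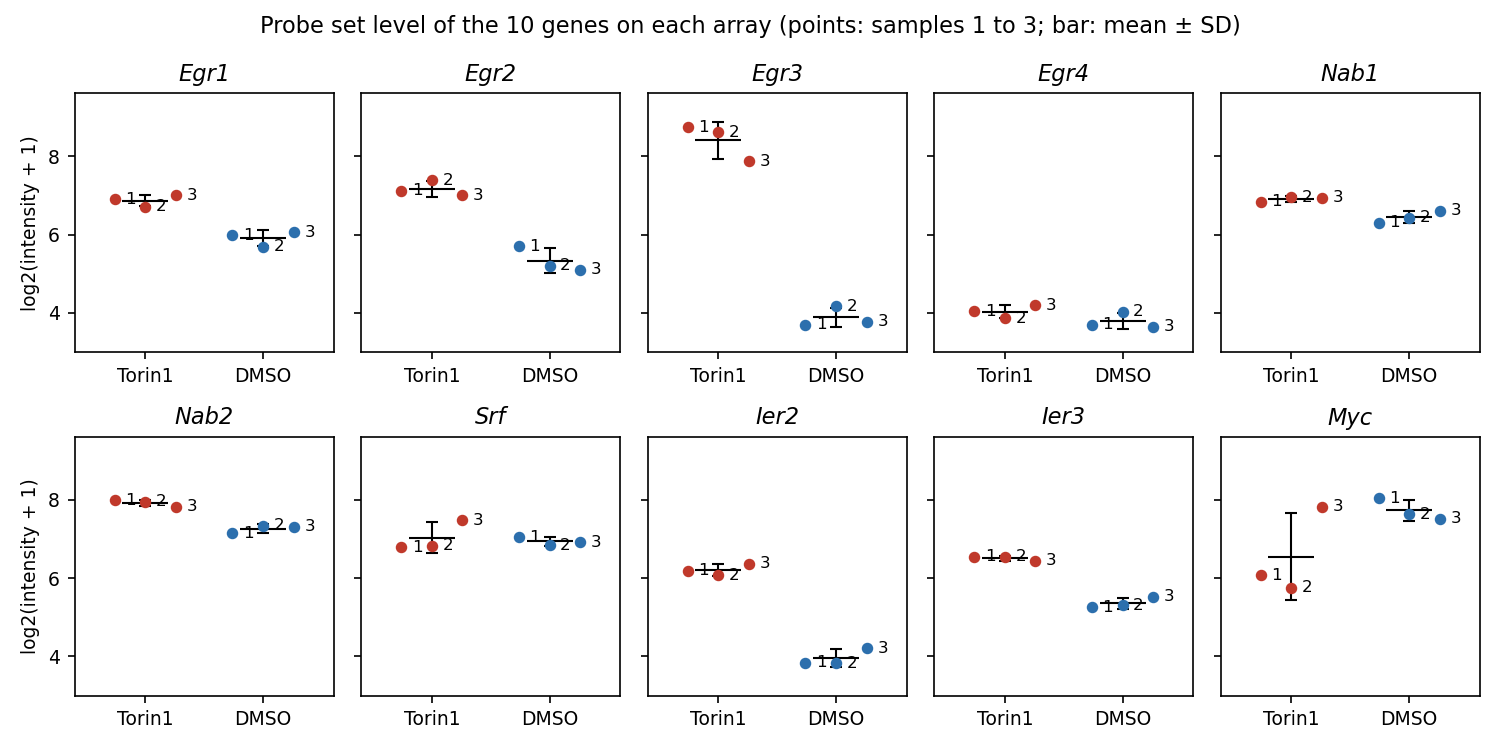
Level of each of the 10 genes as log2(intensity + 1) on every array, Torin1 samples left (red) and DMSO samples right (blue), numbered 1 to 3, with mean and SD as black bars. Egr3 and Ier2 show the widest gaps between the groups, and Myc in Torin1 sample 3 lies at 7.82, among the DMSO samples.

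The arrays fell into their groups on the first principal component, with 67.2% of the variance, and Torin1 sample 3 stood apart from the other Torin1 samples on the second, with 16.5%. Over all genes, log2 differences between Torin1 sample 3 and Torin1 samples 1 and 2 had SDs of 0.33 and 0.35, against 0.20 between Torin1 samples 1 and 2 and 0.21 to 0.24 among DMSO samples. The description of Torin1 sample 3 carries the short name of sample 2. Torin1 samples 2 and 3 had identical values in 7 of 22180 genes. Calls and counts below that moved without sample 3 are given with their values without it. Most oocyte markers were high in every sample, but by their mean Figla and Sohlh1 lay only at percentiles 52.7 and 43.2 of all genes. The summed intensity over the 15 oocyte markers was 6965 to 7679 with Torin1 and 6218 to 6637 with DMSO. Among granulosa and cumulus markers 9 of 11 fell and 1 rose, where 6.94% of all genes were called lower and 5.13% higher. Without Torin1 sample 1, 6 fell, and without Torin1 sample 3, 8 fell. Without Torin1 sample 2 or any 1 of the DMSO samples, 7 fell. By unadjusted p below 0.05, 9 fell in each of these fits. The gene that rose was Inhba, by 2.06 ± 0.21 (SE; limma adjusted p = 0.0014). Their summed intensity was 2432 to 3015 with Torin1 and 4676 to 4854 with DMSO. Amhr2, the anti-Müllerian hormone receptor gene, averaged 4.04 ± 0.95 with Torin1 and 8.03 ± 0.14 with DMSO (SD, n = 3 each). Fshr, the receptor of follicle-stimulating hormone, averaged 5.59 ± 0.88 with Torin1 and 8.37 ± 0.24 with DMSO (SD, n = 3 each).

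Srf encodes the factor that holds the cascade's target genes at the CArG box, and it is such a target itself. Its level was 6.78, 6.83 and 7.48 in Torin1 samples 1, 2 and 3, against 7.05, 6.84 and 6.92 in DMSO samples 1, 2 and 3. Torin1 sample 3 was the highest of the 6 and Torin1 samples 1 and 2 the lowest, so the groups overlapped. The log2 change of 0.10 ± 0.19 (SE) was not called (limma adjusted p = 0.858), and its 95% interval ran from -0.35 to 0.54. Without Torin1 sample 3 the change was -0.13 (adjusted p = 0.496).

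Egr3 had the largest rise of the 10 and stood at rank 6 of 22180 genes ordered by log2 change. It measured 8.74, 8.61 and 7.87 in Torin1 samples 1, 2 and 3, against 3.70, 4.18 and 3.78 in DMSO samples 1, 2 and 3. In intensity units these are 427.9, 389.2 and 233.5 with Torin1 and 12.0, 17.1 and 12.7 with DMSO. Even the lowest Torin1 sample, number 3, was far above every DMSO sample. The log2 change was 4.52 ± 0.24 (SE), or 23.0-fold, with a limma adjusted p of 1.18e-04. The DMSO mean of 3.89 lay below the median gene's level of 4.17, so the size of the fold is uncertain. EGR3 belongs to the same family as EGR1 and is known in muscle spindles, neurons and lymphocytes.

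Egr2, a factor of Schwann cell myelination and hindbrain patterning, also known as Krox20, measured 7.11, 7.39 and 7.00 in Torin1 samples 1, 2 and 3. The DMSO samples 1, 2 and 3 were at 5.70, 5.20 and 5.11. No value was shared between the groups, and DMSO sample 1 was the highest of its group. The rise was 1.83 ± 0.18 (SE) on the log2 scale, or 3.56-fold (limma adjusted p = 0.0011). The annotated Egr2 locus, chr10:67534469-67542188 in GRCm38.p6, overlaps the predicted gene Gm32255 over 1712 bases, and signal from both could not be told apart here.

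Egr1, the most studied family member and a textbook immediate early gene, was at 6.90, 6.71 and 7.00 in Torin1 samples 1, 2 and 3 and at 5.98, 5.69 and 6.06 in DMSO samples 1, 2 and 3. Each group spanned less than the gap between them. It rose by 0.96 ± 0.13 (SE), a 1.94-fold change (limma adjusted p = 0.0038). Egr4, known from neurons and male germ cells, stayed dim, at 4.04, 3.87 and 4.20 with Torin1 and 3.70, 4.03 and 3.64 with DMSO. Its groups overlapped through DMSO sample 2. Its change of 0.24 ± 0.13 (SE) was not called (limma adjusted p = 0.347; 95% interval -0.07 to 0.56), and both means lay below the median gene.

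The corepressor genes had smaller log2 changes than Egr1, Egr2 and Egr3, and the differences between genes were not tested. Nab2, itself an EGR target that closes a negative feedback loop, measured 7.98, 7.95 and 7.82 in Torin1 samples 1, 2 and 3, against 7.14, 7.34 and 7.31 in DMSO samples 1, 2 and 3. Both groups were tight and did not meet. The log2 change was 0.66 ± 0.09 (SE), or 1.58-fold (limma adjusted p = 0.0043). A second, dimmer Nab2 probe set gave 0.52 ± 0.11 (SE; adjusted p = 0.0217 in a limma fit over all 23521 probe sets naming 1 gene). Nab2 overlaps Stat6 over 70 bases on chromosome 10.

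Nab1 was at 6.83, 6.95 and 6.95 in Torin1 samples 1, 2 and 3 and at 6.30, 6.43 and 6.61 in DMSO samples 1, 2 and 3. The DMSO sample nearest to the Torin1 samples was number 3. Its rise of 0.46 ± 0.10 (SE), or 1.38-fold, had a limma adjusted p of 0.0239. The call was lost without Torin1 sample 1 (adjusted p = 0.0514), Torin1 sample 2 (0.0747), DMSO sample 1 (0.0734) or DMSO sample 2 (0.0778), with changes of 0.39 to 0.50 in those fits.

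Ier2, an immediate early gene whose small nuclear protein is also called PIP92, rose most after Egr3. Its levels were 6.19, 6.08 and 6.37 in Torin1 samples 1, 2 and 3, against 3.84, 3.82 and 4.21 in DMSO samples 1, 2 and 3. Sample 3 was the highest in each group, and the groups lay far apart. The log2 change was 2.25 ± 0.13 (SE), or 4.77-fold (limma adjusted p = 1.82e-04). As for Egr3, the DMSO mean of 3.96 lay below the median gene, so the fold is uncertain.

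Ier3, also called IEX-1, encodes a substrate of ERK that bears on cell survival. It measured 6.54, 6.55 and 6.44 in Torin1 samples 1, 2 and 3, against 5.25, 5.30 and 5.52 in DMSO samples 1, 2 and 3. Here Torin1 sample 3 was the lowest of its group and DMSO sample 3 the highest, with a clear gap between them. The rise was 1.15 ± 0.09 (SE), or 2.22-fold (limma adjusted p = 5.95e-04).

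Myc, the proto-oncogene of growth and ribosome production, was the 1 gene of the 10 with a change below 0, and it differed within the Torin1 group more than any other member. Its levels were 6.07, 5.76 and 7.82 in Torin1 samples 1, 2 and 3, against 8.04, 7.63 and 7.52 in DMSO samples 1, 2 and 3. In intensity units these are 66.1, 53.1 and 225.2 with Torin1 and 261.3, 197.3 and 182.2 with DMSO. Torin1 samples 1 and 2 lay below all DMSO samples, whereas Torin1 sample 3 lay inside the DMSO range. With all arrays the change of -1.18 ± 0.50 (SE) was not called (limma adjusted p = 0.210; 95% interval -2.36 to 0.01). Without Torin1 sample 2 it was -0.78 and not called. Without Torin1 sample 3 it was -1.82 and called (adjusted p = 0.001); with Torin1 samples 2 and 3 averaged into 1 sample it was -1.30 and also called (adjusted p = 0.0158).

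**Figure D2:**
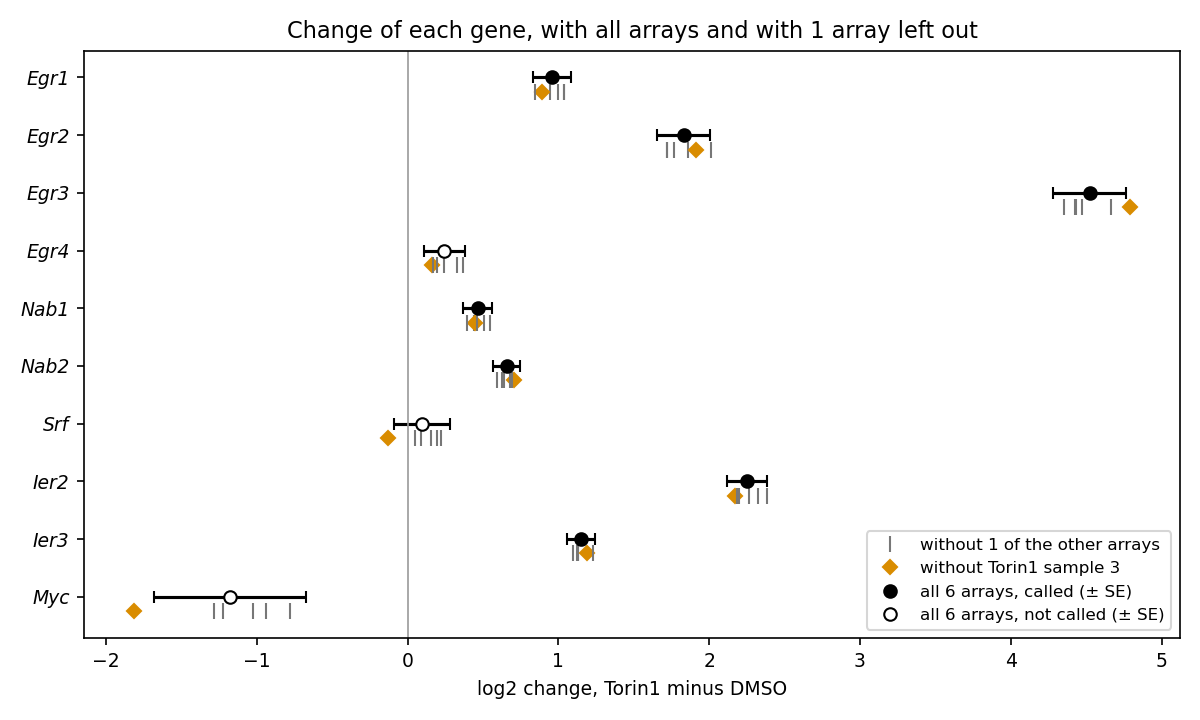
Log2 change, Torin1 minus DMSO, of the 10 genes with all 6 arrays (circles with SE, filled where called) and with 1 array left out (grey ticks; orange diamonds without Torin1 sample 3). The diamond of Myc sits at -1.82 and that of Srf at -0.13, while that of Egr3, at 4.79, lies above its value with all arrays.

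The genes that rose were not all of one level. By their mean over all arrays they lay between the 62.9th percentile of all genes (Ier2) and the 92.5th percentile (Nab2), with Egr1, Egr2 and Egr3 at 80.1, 78.3 and 77.0. Of the genes not called, Myc and Srf lay at percentiles 88.5 and 87.0 and Egr4 at 45.6. Among all genes ordered from the largest rise, Ier2 had rank 74, Egr2 rank 122, Ier3 rank 308, Egr1 rank 415, Nab2 rank 744 and Nab1 rank 1188 of 22180.

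**Figure D3:**
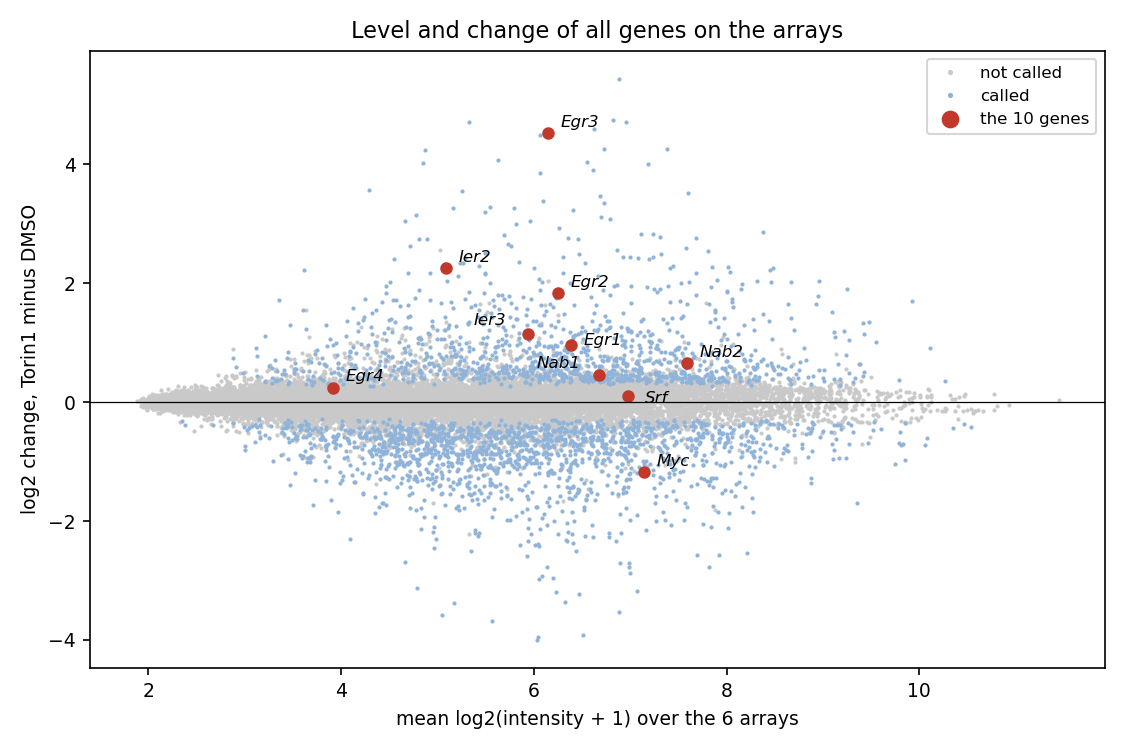
Mean log2(intensity + 1) over the 6 arrays (x axis) and log2 change, Torin1 minus DMSO (y axis), of 22180 genes, called in blue and not called in grey, with the 10 genes in red. Egr3 lies near the top of the plot at 4.52, and Egr4 near the no-change line at 0.24.

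Promoter sequence of RefSeq (GRCm38.p6), 250 bases before to 50 bases after each annotated start, was at hand for 6 of the 10 genes: Egr2 with 5 starts, and Egr4, Nab1, Nab2, Srf and Ier3 with 1 each. Both strands were searched for the CArG box of SRF, the EGR motif GCGNGGGCG, the cyclic AMP response element TGACGTCA and the E-box CACGTG of MYC. In the members' windows no 2 matches overlapped within a window. The stretches are printed below because they carry the binding elements of SRF and of the EGR factors. Of these genes Egr2 and Nab1 were called higher and Srf was not called, and the differences between them were not tested. Capitals mark the CArG box in Egr2, the CArG boxes and the EGR motif in Srf, and the EGR motifs, on either strand, in Nab1.
Egr2, chr10:67537619-67537868, plus strand: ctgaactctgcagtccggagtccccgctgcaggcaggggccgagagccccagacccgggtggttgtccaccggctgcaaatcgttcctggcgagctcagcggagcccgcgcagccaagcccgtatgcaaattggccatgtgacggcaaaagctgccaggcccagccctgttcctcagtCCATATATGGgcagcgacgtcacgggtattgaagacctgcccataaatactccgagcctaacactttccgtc
Srf, chr17:46556163-46556412, minus strand: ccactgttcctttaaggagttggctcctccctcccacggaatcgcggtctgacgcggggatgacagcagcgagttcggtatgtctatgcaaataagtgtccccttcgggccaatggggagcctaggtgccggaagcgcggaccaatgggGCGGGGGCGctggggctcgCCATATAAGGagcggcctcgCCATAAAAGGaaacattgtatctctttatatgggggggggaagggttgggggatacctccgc
Nab1, chr1:52500449-52500698, minus strand: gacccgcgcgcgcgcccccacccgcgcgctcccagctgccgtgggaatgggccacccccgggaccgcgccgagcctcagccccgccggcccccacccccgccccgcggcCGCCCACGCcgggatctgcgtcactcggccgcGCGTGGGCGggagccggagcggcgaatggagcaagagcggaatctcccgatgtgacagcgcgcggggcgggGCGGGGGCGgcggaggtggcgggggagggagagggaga

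A CArG box was found in 2 of the 6 genes, Egr2 and Srf, against 1.81% of all 27025 genes with a promoter window and 1.63% of all 32851 windows. In Egr2 it lay in 4 of 5 windows, of which 3 overlap and share 1 box, with its first base 72 bases before the start in the window shown, CCATATATGG, and a different box, CCTTTTTTGG, lay 72 bases before an upstream start. Srf held CCATATAAGG and CCATAAAAGG with first bases 82 and 62 bases before its start, and an EGR motif 101 bases before it. Nab1 held 3 EGR motifs, with first bases 141, 109 and 38 bases before its start, where 6.27% of genes and 5.55% of windows held any. An E-box lay in 1 Egr2 window, 27 bases before the start, against 7.15% of windows, and the cyclic AMP element, present in 1.79% of windows, was in none of the 10. The windows of Egr4, Nab2 and Ier3 held none of these letters. A match is a description of letters, not a shown binding site.

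**Figure D4:**
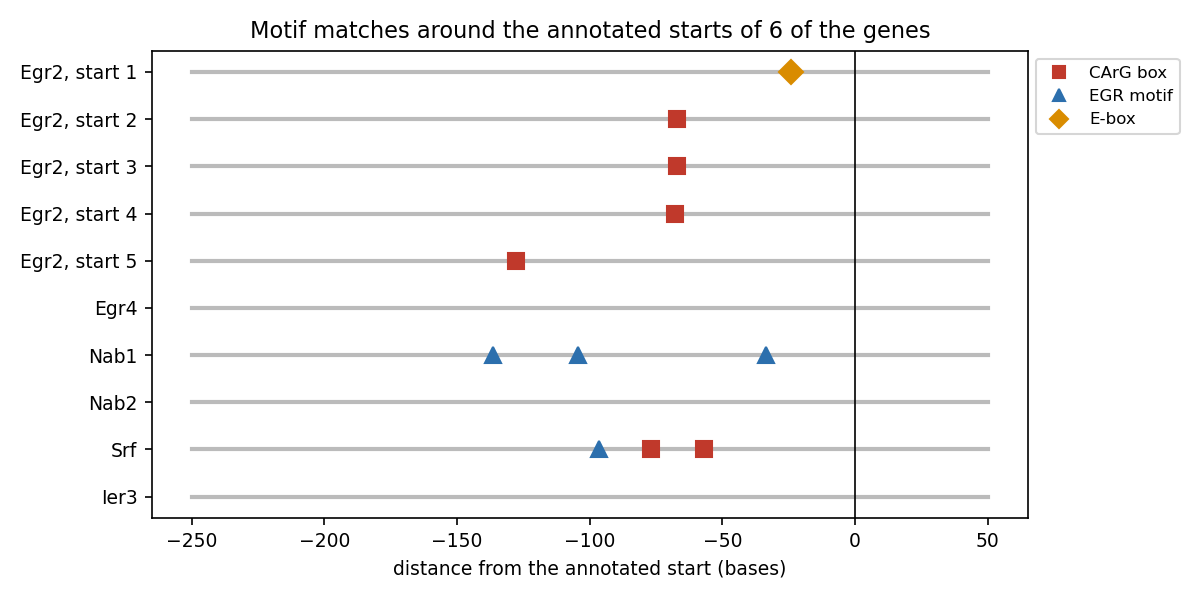
Matches of the CArG box (squares), EGR motif (triangles) and E-box (diamond) in the windows from 250 bases before to 50 bases after the annotated starts of 6 of the genes, with distance from the start in bases on the x axis. The CArG boxes of Egr2 and Srf and the EGR motifs of Nab1 all lie before the start.

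Beyond the 10, most listed early response genes and inhibitors that damp ERK rose with Torin1. Of 40 measured, 26 rose, 0 fell and 14 were not called by limma, where 5.13% of all genes were called higher. At an unadjusted p below 0.05, 30 were higher and 0 lower, against 2515 and 2813 of all 22180 genes. The median log2 change was 1.24 against 0.01 for all genes. Fos, among the 14 not called, had a change of 0.24 ± 0.23 (SE, limma adjusted p = 0.645) and was looked up after its value was known. Leaving out 1 array gave 20 (without DMSO sample 3) to 27 (without Torin1 sample 3) called higher and 0 lower. By unadjusted p below 0.05, 29 were higher and 2 lower without Torin1 sample 3. Dusp4, a phosphatase of MAP kinases, averaged 9.19 ± 0.28 with Torin1 and 5.18 ± 0.44 with DMSO (SD, n = 3 each). Trib1, a pseudokinase gene, rose by 3.27 ± 0.20, Spry2, a feedback inhibitor of receptor signalling, by 3.12 ± 0.26, and Klf4, a zinc finger factor gene, by 2.76 ± 0.24 (SE). These 4 were highest in Torin1 sample 3, the sample in which Egr3 was lowest: Trib1 was at 7.19, 7.15 and 7.93 in Torin1 samples 1, 2 and 3 and at 4.21, 4.15 and 4.10 in DMSO samples 1, 2 and 3. The DMSO mean of Trib1, 4.16, lay just below the median gene, and with a pseudocount of 16 its change was 2.51. By array, the median difference of the list from the DMSO mean was 1.03, 1.08 and 1.38 in Torin1 samples 1, 2 and 3. Within the IER family, Ier5 rose by 1.72 ± 0.25 (limma adjusted p = 0.0055), and Ier5l, at 0.18 ± 0.15, was not called (adjusted p = 0.585); both were looked up after their values were known.

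**Figure D5:**
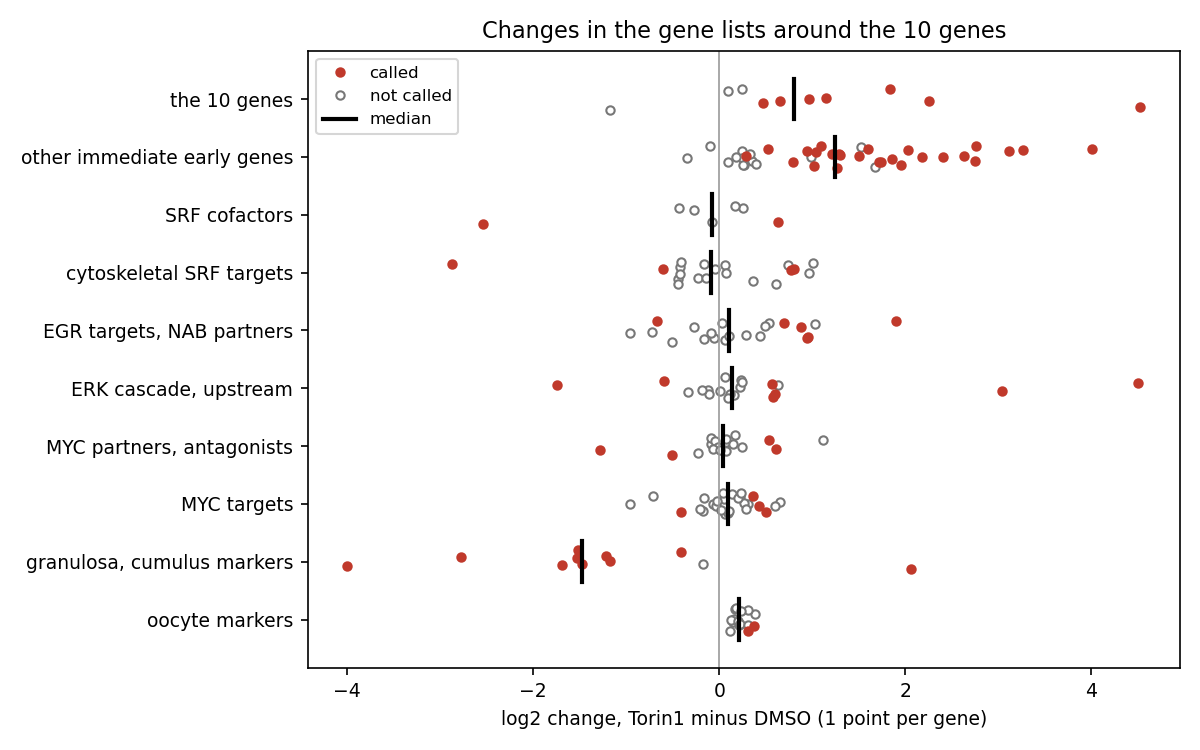
Log2 change, Torin1 minus DMSO, of every measured gene (1 point each, red where called) in the 10 genes and the lists around them, with the list median as a black line. The medians of the 10 genes and of the other immediate early genes, 0.81 and 1.24, lie right of those of the SRF cofactors and cytoskeletal targets, -0.08 and -0.09.

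Upstream, genes of the ERK cascade went both ways. Of 20 measured from 28 listed, 5 rose and 2 fell, where 5.13% of all genes were called higher and 6.94% lower. The median was 0.13, and 1 fell without Torin1 sample 1 or without any of the DMSO samples. Btc, which encodes betacellulin, an EGFR ligand, was at 8.23, 8.05 and 8.65 in Torin1 samples 1, 2 and 3, against 3.53, 3.74 and 4.16 in DMSO samples 1, 2 and 3. Ereg, a ligand of the same family, rose by 3.04 ± 0.09 (SE), or by 1.94 with the mean of all its probe sets. Sos2, an exchange factor that loads RAS, rose by 0.60 ± 0.09. The receptor gene Egfr fell, by 1.74 ± 0.27 (limma adjusted p = 0.0074): it measured 6.64, 6.68 and 7.64 in Torin1 samples 1, 2 and 3 and 8.51, 8.74 and 8.93 in DMSO samples 1, 2 and 3. Torin1 sample 3 was here the one nearest to DMSO, as it was for Myc.

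Partners of SRF were split. Among 7 measured cofactor genes 1 rose and 1 fell, where 5.13% of all genes were called higher and 6.94% lower. The median was -0.08. Myocd, the coactivator of smooth muscle genes, averaged 6.93 ± 0.35 with Torin1 and 9.48 ± 0.11 with DMSO (SD, n = 3 each), a log2 change of -2.55 ± 0.17 (SE; limma adjusted p = 2.97e-04). Elk4, a ternary complex factor, rose by 0.63 ± 0.13 (adjusted p = 0.0249) and lost the call without Torin1 sample 1 (adjusted p = 0.0564), Torin1 sample 2 (0.0752), DMSO sample 2 (0.0581) or DMSO sample 3 (0.0553).

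Cytoskeletal targets of SRF and its actin-sensing cofactors were mostly not called. Of 20 measured, 2 rose, 2 fell and 16 were not called, where 5.13% of all genes were called higher and 6.94% lower. The median was -0.09. Acta2, smooth muscle actin, fell by 2.87 ± 0.12 (SE; limma adjusted p = 5.28e-05), with 5.64, 5.39 and 5.65 in Torin1 samples 1, 2 and 3 and 8.25, 8.53 and 8.52 in DMSO samples 1, 2 and 3. Cnn1, a calponin of smooth muscle, fell by 0.60 ± 0.11, and Myh9, a non-muscle myosin, rose by 0.80 ± 0.07. Zyx, a focal adhesion protein, rose by 0.77 ± 0.19 (adjusted p = 0.0451), and lost the call without Torin1 sample 1 (0.0564), Torin1 sample 2 (0.0523), DMSO sample 1 (0.128), DMSO sample 2 (0.106) or DMSO sample 3 (0.143). Without Torin1 sample 3, 5 of the list rose and 4 fell, and the median was -0.31; without Torin1 sample 1 or any of the DMSO samples 1 rose. By array, the median difference from the DMSO mean was -0.29, -0.20 and 0.20 in Torin1 samples 1, 2 and 3, so sample 3 was the one on the other side of 0, as for Srf.

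Genes that EGR factors are known to act on, with partners of the NAB corepressors, were mixed. Of 21 measured, 5 were called higher and 1 lower, where 5.13% of all genes were called higher and 6.94% lower. The median was 0.11. Without DMSO sample 3, 3 were called higher. Without Torin1 sample 3, 6 were called higher and 2 lower, and without Torin1 sample 2, 2 were called lower. Tgfb1, a growth factor gene with EGR sites, measured 9.57, 9.57 and 8.17 in Torin1 samples 1, 2 and 3, against 7.20, 7.12 and 7.28 in DMSO samples 1, 2 and 3. As for Egr3, Torin1 sample 3 was the lowest of its group and above every DMSO sample. The rise of 1.90 ± 0.36 (SE; limma adjusted p = 0.0156) lost the call without Torin1 sample 1 (0.0521), DMSO sample 1 (0.056), DMSO sample 2 (0.0602) or DMSO sample 3 (0.0567). Cd44, a hyaluronan receptor gene, rose by 0.95 ± 0.09, Arc, a neuronal immediate early gene that EGR factors raise, by 0.94 ± 0.17, and Fgf2, a fibroblast growth factor gene, by 0.88 ± 0.15; Arc lost the call without DMSO sample 3 (adjusted p = 0.0526). Arc is also in the list of early response genes above, so its rise is counted in both lists. The DMSO means of Cd44 and Fgf2, 3.38 and 3.31, lay below the median gene, and with a pseudocount of 16 their changes were 0.47 and 0.42.

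MYC's network did not share a direction. Of 18 partner, antagonist and turnover genes 2 rose and 2 fell, where 5.13% of all genes were called higher and 6.94% lower. The median was 0.04. Without DMSO sample 2 or DMSO sample 3, 1 rose, and without Torin1 sample 3, 3 rose. Mycl, a MYC paralog gene, fell by 1.28 ± 0.20 (SE), with 3.19, 3.70 and 4.02 in Torin1 samples 1, 2 and 3 and 4.96, 4.84 and 4.96 in DMSO samples 1, 2 and 3. With a pseudocount of 16 its change was -0.71. Mnt, a repressor that competes with MYC for its partner MAX, rose by 0.60 ± 0.08, Fbxw7, whose product marks MYC for degradation, rose by 0.54 ± 0.10, and Mlxip, of the extended MYC and MAX family, fell by 0.51 ± 0.09. Fbxw7 lost the call without DMSO sample 2 (adjusted p = 0.061) or DMSO sample 3 (0.0698).

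Among 27 measured MYC targets 3 rose, 1 fell and 23 were not called, with a median of 0.09. Over all genes 5.13% were called higher and 6.94% lower. Gnl3, Wdr43 and Nolc1, all of the nucleolus, rose by 0.51 ± 0.12, 0.43 ± 0.11 and 0.37 ± 0.07, and the cell cycle kinase gene Cdk4 fell by 0.42 ± 0.09 (SE). These calls were lost when any of several arrays was left out, while the changes moved less. Without Torin1 sample 2 or without DMSO sample 2 no target was called (0 of 27 by limma; by unadjusted p below 0.05, 7 higher and 3 lower, and 4 higher and 3 lower). In these fits Cdk4 had log2 changes of -0.43 and -0.44, and Nolc1 of 0.36 and 0.36. Without Torin1 sample 3, 1 target rose and 2 fell, and Gnl3, at 0.45, and Wdr43, at 0.38, were not called (limma adjusted p = 0.061 and 0.0887). Without Torin1 sample 1, 1 rose and 0 fell (7 and 3 at unadjusted p), without DMSO sample 1, 3 rose and 0 fell (12 and 3), and without DMSO sample 3, 0 rose and 1 fell (6 and 3). By array, the median difference of the list from the DMSO mean was 0.10, 0.10 and 0.20 in Torin1 samples 1, 2 and 3, but 0.19, -0.12 and -0.05 in DMSO samples 1, 2 and 3. DMSO sample 1 thus lay with the Torin1 samples.

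Markers of other cells were checked beside these values. Leukocyte markers had a summed intensity over 11 genes of 116.9 to 122.3 with Torin1 and 105.1 to 113.4 with DMSO; of these Cd68 rose, by 0.54 ± 0.11 (SE), and lost the call without Torin1 sample 1 (adjusted p = 0.0646), DMSO sample 1 (0.0661), DMSO sample 2 (0.0634) or DMSO sample 3 (0.0681), while Ptprc, which defines leukocytes, was dim at 3.07 with Torin1 and 3.04 with DMSO. Over 7 endothelial markers the sum was 159.3 to 277.2 with Torin1 and 113.9 to 117.9 with DMSO. In that list Cdh5, with a DMSO mean of 4.10 that lay below the median gene, rose by 2.33 ± 0.37 (SE, limma adjusted p = 0.0084). The other 6 were not called. Of these, Kdr had a change of 0.49 ± 0.14 (adjusted p = 0.0716), with all Torin1 values above all DMSO values, and Pecam1 of 0.20 ± 0.13. Tek, Tie1, Vwf and Emcn had changes of 0.07, -0.002, -0.06 and -0.03, and 2 of the list were called higher without Torin1 sample 1. Theca and stroma markers summed to 80.2 to 87.5 with Torin1 and 100.8 to 108.3 with DMSO over 7 genes, with Pdgfra lower by 0.82 ± 0.08; it was the 1 gene called, and 2 were called lower without Torin1 sample 3. The erythroid list had 1 measured gene, Epb42, with a change of 0.06. All 15 oocyte markers had a change above 0, with a median of 0.21. At an unadjusted p below 0.05, 9 were higher, against 2515 of all 22180 genes. By adjusted p 2 were called higher, Figla by 0.38 ± 0.09 and Dppa3 by 0.31 ± 0.07, against 5.13% of all genes. Figla lost its call without Torin1 sample 1 (limma adjusted p = 0.0839), Torin1 sample 2 (0.1029), DMSO sample 1 (0.0987) or DMSO sample 3 (0.1161). Dppa3 lost its call in each of the 6 fits that left out 1 array, without Torin1 sample 3 at an adjusted p of 0.0678. None of the 15 was called by limma without Torin1 sample 2, DMSO sample 1 or DMSO sample 3 (4, 4 and 7 higher by unadjusted p below 0.05), and 1 was in each of the other leave-one-out fits. The part of these shifts in the changes of the 10 genes was not tested.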

How the data were processed

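Per the labels' protocols, RNA of 3 Torin1 and 3 DMSO samples was amplified to cDNA and tagged with biotin. The deposited intensities, 1 per probe set and array on a linear scale from 2.25 to 3268, were made by the authors; the submitters' processing notes name RMA, GCOS and version 1.1 of Affymetrix Expression Console, without settings. RMA is meant to put all arrays on a common distribution, so that each change is measured against the array as a whole. The deposited array medians still differed, from 11.1 to 11.97 in intensity units. Of 41345 probe sets, 23521 named 1 gene, 1814 several and 16010 none here, which gave 22180 genes; 1082 of them had more than 1 probe set and were represented by the brightest, and no probe set of several genes named a member. Entrez identifiers of 23328 probe sets matched RefSeq (GRCm38.p6), with 0 symbols changed.

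Torin1 was compared with DMSO on log2(intensity + 1) by limma 3.58.1 in R 4.3.3 (lmFit, eBayes, two-sided, no covariate, no filter), with p-values adjusted by Benjamini and Hochberg's method across the 22180 genes. A gene was called where that value was below 0.05. Adjusted p-values come from this limma fit unless stated, and the fit was tested on simulated data. The number of arrays limits the precision. Named were all members, up to 4 called genes of each pathway list by size of change, and up to 2 called genes of each marker list. Where a list had no call, the 2 genes with the smallest p (pathway lists) or highest mean (marker lists) were taken. Ptprc, Inhba, Sohlh1, the endothelial genes other than Cdh5, Fos, Ier5 and Ier5l were added after their values were seen. The members and lists were chosen with earlier results of these data known. Alternatives were another pseudocount, a filter on dim genes, all probe sets, median centring, quantile normalization, the replicate number as a block, each array left out, Torin1 samples 2 and 3 as 1, and a trended prior.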

Additional observations from a re-analysis of the deposited data

How the results depend on the processing

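Under the 15 alternatives, Egr1, Egr2, Egr3, Nab2, Ier2 and Ier3 kept their direction and their call in every one (for Egr3, log2 changes of 3.57 to 4.79 and limma adjusted p up to 0.0017). Egr4 kept its direction in the 14 that could test it and was called in none (0.12 to 0.37). Nab1 lost its call in 5 alternatives (adjusted p up to 0.0778). Srf was called in none, and leaving out 1 array gave -0.13 to 0.22. The replicate numbers shared by the titles were checked as pairs. Deviations of same-numbered samples correlated at -0.21, -0.30 and -0.15 over genes, and no sample correlated best with its own number. The highest correlations were 0.3105 for Torin1 sample 1 with DMSO sample 2 and 0.305 for Torin1 sample 2 with DMSO sample 3. Deviations within a group of 3 sum to 0, so these correlations depend on each other and cannot settle whether samples were paired. With a replicate block 1565 genes were called (657 higher, 908 lower) in place of 2678 (1138 higher, 1540 lower), and 6 members in place of 7, with Nab1 at an adjusted p of 0.0558. Leaving out 1 array gave 1518 (without DMSO sample 3) to 3083 (without Torin1 sample 3) calls, with 655 to 1389 higher and 844 to 1694 lower. Members called lower numbered 0 to 1 when 1 array was left out, the 1 being Myc without Torin1 sample 3, and 1, again Myc, with Torin1 samples 2 and 3 as 1 sample. Averaging these hides their spread; the cause of the difference between Torin1 samples was not tested. The 34 list genes named by the stated rule kept direction and call in 440 of 507 fits, lost the call in 67 and reversed in 0. Fewer arrays leave fewer degrees of freedom. Dim genes, such as Egr4 and the DMSO values of Egr3 and Ier2, are limited by signal over background, which was not measured here.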
